A study of Mus musculus with 4 samples.

Results

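The clustered protocadherin genes lie in tandem on mouse chromosome 18 as an alpha, a beta and a gamma cluster. The members were the protein-coding genes of chromosome 18 in the RefSeq annotation of GRCm38.p6, the same assembly as mm10, whose symbol starts with Pcdha, Pcdhb or Pcdhg. They numbered 57 of 21631 protein-coding genes on the autosomes and X, with 14 in the alpha, 22 in the beta and 21 in the gamma cluster. No value from the sequencing was used to choose them. Pcdhgb8, a transcribed pseudogene in this annotation, and the 3 alpha-to-gamma fusion genes with Gm symbols were not members. The alpha cluster spanned 36930285 to 37188897, the beta cluster 37264998 to 37521419 and the gamma cluster 37661775 to 37841873 on chromosome 18.

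Protocadherins of these clusters are cadherin-like proteins of the neuronal surface that bind copies of themselves on other cells, and they are known for giving single neurons an identity used in dendrite self-avoidance and wiring. In the alpha and gamma clusters each gene has its own large variable first exon with its own promoter, which is spliced to constant exons shared by the whole cluster at its 3' end, whereas the beta genes are single-exon genes. Most of the promoters are chosen at random in each neuron, with CTCF, cohesin and DNA methylation taking part in the choice, while the C-type genes at the ends of the alpha and gamma arrays are used more constantly.

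The study asked which genomic regions are bound by Six3, a homeodomain protein needed for forebrain and eye formation. Primary mouse neural stem cells, labelled as wild type and made to overexpress Six3, were grown with N-2 supplement, EGF and FGF2 and were then kept for 3 h in neurobasal medium with B-27 for neural differentiation. CUT&RUN, in which an antibody directs micrococcal nuclease to cut the DNA around a bound protein, was performed in 3 libraries labelled Six3_flag and in 1 IgG control library, all labelled with the same cells and the same 3 h treatment. The sources used here do not name the promoter of the added Six3, the animals' age or the number of cultures behind the libraries.

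The deposited table held 1578514 called regions, each with a highest coverage signal (here called its height) and a signal summed over its bases. No column belonged to a single library. Binding in the FLAG libraries could therefore not be set against IgG here, no value below has a replicate error, and the depth per library is unknown. All numbers describe where called regions lay in 1 table, with no test. Heights fell on whole multiples of 1.9 in 945651 regions (the 1.9-step set) and of 0.48 in 632860 (the 0.48-step set); 3 regions were multiples of both or of neither, and none of these lay in the clusters. The heights of the 2 sets need not be on one scale. The libraries behind each set are not named in the sources used here. RNA was not measured, so neither the identity of the cells nor the use of any protocadherin promoter could be checked. No sequence of a member is shown.

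The 3 clusters held 424 regions by midpoint, 248 in 1.9 steps and 176 in 0.48 steps. Their median heights were typical of the table, but its tallest regions lay elsewhere. In the 1.9-step set 92 regions were 3.8 high, 105 were 5.7, 43 were 7.6 and 8 were 9.5, which is 5 steps. In the 0.48-step set 141 regions were 0.96 high, 30 were 1.44 and 5 were 1.92. Median heights, 5.7 and 0.96, were those of the 2 sets over all these chromosomes. Regions of 3 or more steps made up 62.9% of the 1.9-step regions in the clusters, against 63.5% over chromosomes 1 to 19 and X. For the 0.48-step set the shares were 19.9% and 24.2%. Median widths were 444.5 bp in the clusters and 455 bp over these chromosomes for the 1.9-step set, and 208 and 195 bp for the 0.48-step set.

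Regions of the 1.9-step set were less dense in the clusters than in the flanks of 1 Mb on either side. The alpha cluster had 356 regions of this set per Mb, the beta cluster 351 and the gamma cluster 366. The flank before the alpha cluster had 435 per Mb and the flank after the gamma cluster 456, which puts the 3 clusters together at 0.801 times their flanks. The spaces between the clusters, with 368 per Mb between alpha and beta and 349 between beta and gamma, lay in or near the range of the clusters. In autosomal tiles of 250 kb the median was 380 per Mb, and the middle range of tiles, from the 25th to the 75th percentile, ran from 336 to 424. Each cluster thus lay below the median and inside the middle range, and the flanks lay above that range. The flanks, at 1 Mb, were longer than these tiles. Summed signal was also lower in the clusters than in the flanks, with 615 per kb in alpha, 520 in beta and 536 in gamma against 711 and 758. The tile median was 617.5 with a middle range of 533 to 703, so that beta lay just below that range, and the clusters did not follow their order by density. Regions of the set covered 17.9% of the bases of the clusters and 22.6% of the flanks. The flank before held 23 protein-coding gene starts and the flank after 15, each in 1 Mb. Strand was not known for the genes of the flanks, so some of these starts may be gene ends. The alpha cluster held 17 in 259 kb, of which 14 were members, the beta cluster 22 in 256 kb and the gamma cluster 21 in 180 kb. Starts were thus denser in the clusters than in the flanks. The part of gene content in the difference was not tested.

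The 0.48-step set gave a smaller difference. Its density was 228 regions per Mb in the alpha cluster, 269 in beta and 267 in gamma, against 261 in the flank before and 284 in the flank after. The clusters together stood at 0.929 times the flanks. The median of autosomal tiles was 252, with a middle range of 232 to 276, so the alpha cluster lay just below that range and the other clusters inside it. The space between alpha and beta, at 315 per Mb over 76.1 kb, was the densest of the blocks in this set. It lay above the 95th percentile of 250 kb tiles, 308, but below that of 100 kb tiles, 340, which are nearer to it in length.

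**Figure D1:**
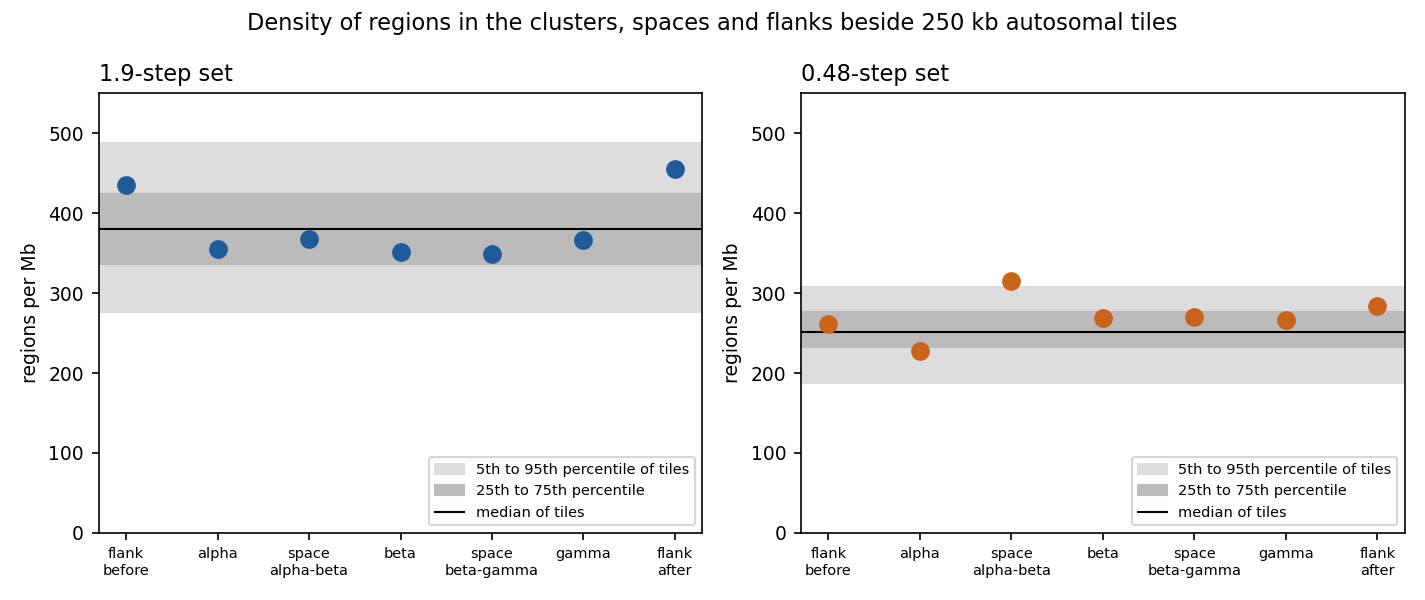
Regions per Mb (y axis) of the 1.9-step set (left) and the 0.48-step set (right) in each cluster, space and 1 Mb flank (points, 1 value each with no replicate). Grey bands and the line show the 5th to 95th percentile, the 25th to 75th percentile and the median of 9606 autosomal tiles of 250 kb. The blocks differ from the tiles in length, and shorter tiles spread more widely. All 3 clusters lie below the 1.9-step median of 380 and both flanks above 424.

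In bins of 25 kb the clusters and flanks overlapped. The alpha bins held 5 to 13 regions of the 1.9-step set with a median of 8, the beta bins 4 to 12 with a median of 8 and the gamma bins 7 to 11 with a median of 10. The bins of the flank before held 5 to 19 and those of the flank after 5 to 16, both with a median of 11. For the 0.48-step set the medians were 5 in alpha, 7 in beta, 7 in gamma, 6.5 in the flank before and 7 in the flank after. No bin of a cluster stood above the tallest bins of the flanks in either set.

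**Figure D2:**
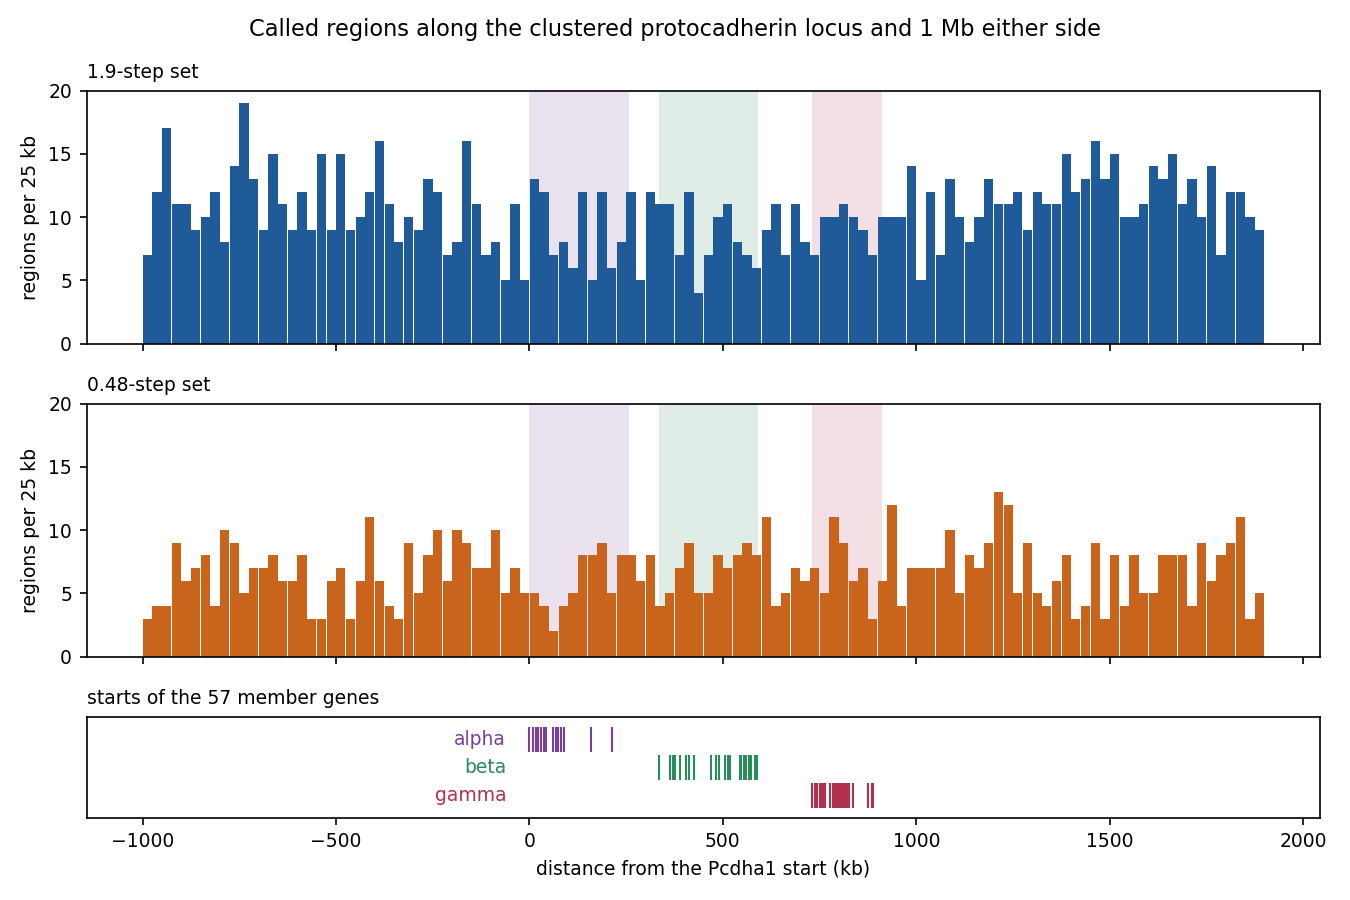
Number of called regions per 25 kb (y axes) of the 1.9-step set (top) and the 0.48-step set (middle) by distance from the Pcdha1 start in kb (x axis); shading marks the alpha, beta and gamma clusters and ticks below mark the 57 member starts. Bars inside the clusters reach at most 13 in the 1.9-step set, against 19 in the flank before.

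Within the alpha cluster the densities varied along its length. The array of alternate genes from Pcdha1 to 2.5 kb past the Pcdha12 start, 92.4 kb long, held 39 1.9-step and 14 0.48-step regions. That is 422 and 151 per Mb. In autosomal tiles of 100 kb, a size chosen after the values were seen, the medians were 380 per Mb (1.9-step) and 250 (0.48-step), with a 5th percentile of 160 for the latter. The array was thus above the median in one set and below the 5th percentile in the other. From there to Pcdhac1 the densities were 297 and 252 per Mb, from Pcdhac1 to Pcdhac2 they were 355 and 299, and from Pcdhac2 to the shared end 310 and 265. Paralogous members have similar sequence, and the sources used here do not say how reads matching several of them were placed. The part of read placement in the low 0.48-step density was not tested.

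In the gamma cluster the array and the stretch after it had similar densities, and the 3' end was sparse. The array from Pcdhga1 to 2.5 kb past the Pcdhga12 start held 395 1.9-step and 301 0.48-step regions per Mb. The stretch from there to Pcdhgc3 had 391 and 287. From Pcdhgc3 to the shared end, 35.5 kb with the 3 C-type genes and the constant exons, only 9 1.9-step and 5 0.48-step regions were called, or 254 and 141 per Mb. In autosomal tiles of 40 kb, also chosen afterwards, the 5th percentiles were 200 and 125 per Mb, so this end was low but inside the spread of tiles. Of its 9 regions of the 1.9-step set 8 had 3 or more steps, beside 63.5% over chromosomes 1 to 19 and X. With 9 regions no difference can be read from this. The longest stretch of the gamma cluster without any region, 7.06 kb, lay in this 3' end, after the start of Pcdhgc5. The longest such stretches were 10.1 kb in alpha, after the Pcdha7 start, and 12 kb in beta, after Pcdhb8, against 10.2 kb in the flank before and 6.31 kb in the flank after. The flanks are longer than the clusters and have more room for a long stretch. Per Mb, stretches of more than 5 kb numbered 15.5 in alpha, 23.4 in beta and 16.7 in gamma, against 13 and 7 in the flanks. No member started inside the longest stretch of its cluster.

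Within 1 kb either side of the gene start, which in alpha and gamma is the start of the variable first exon, 50 of the 57 members had a called region. The rest of the genome gives the background: of 17274 other protein-coding genes with a known strand, none of them on chromosome 18, 82.5% had one, against 87.7% of the members. A region of the 1.9-step set lay there in 44 members (77.2%), with a background of 70.5%. A region of the 0.48-step set lay there in 27 members (47.4%), with a background of 42.7%. Both sets were present in 21 members (36.8%), with a background of 30.7%. The mean number of regions per window was 1.65 in the members and 1.56 in the other genes. In this window the shares lay above the background by less than 7 percentage points. From the start to 2.5 kb downstream they lay below it, at 82.5% against 86.9% for any region, 70.2% against 76.2% for the 1.9-step set and 47.4% against 49.4% for the 0.48-step set. Starts were close together, 4.15 kb apart at the least, so that no window overlapped the next.

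Counts of tall regions at the starts varied between the clusters. A region of 7.6 or more, which is 4 steps of the 1.9-step set, lay within 1 kb of the start of 12 members (21.1%), with a background of 22.9%. These were 7 of the 14 alpha genes, 3 of the 22 beta genes and 2 of the 21 gamma genes. A region of 9.5 lay there in 2 of the 57 members, with a background of 7.18% for 9.5 or more. The median highest signal, with members lacking a region counted as 0, was 6.65 in alpha, 4.75 in beta and 3.8 in gamma, against 5.7 in the other genes. The difference between the clusters has no replicate and was not tested. With a window of 500 bp the counts were 3 in alpha, 0 in beta and 1 in gamma, or 7.02% of the members, with a background of 15.3%. From the start to 2.5 kb downstream they were 6, 2 and 1, or 15.8%, with a background of 26.1%. Within 2 kb they were 8, 4 and 5, or 29.8%, with a background of 36.0%. The members' share lay below the background in each of these windows.

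Among the alpha genes, Pcdha5 had the tallest region, 9.5 high and 486 bp wide, centred 986 bp upstream of the start (36959047 to 36959532). A second region of the 1.9-step set, 5.7 high, covered its start. Pcdha2 had a region of 7.6 on each side of the start, centred 693 bp upstream and 998 bp downstream, and the largest summed signal of the alpha starts, 5255.9. Pcdha12 had 7.6 centred 667 bp downstream, and Pcdha1 had 7.6 centred 536 bp upstream. Pcdha4 and Pcdha7 also reached 7.6, the latter through the edge of a region centred 1394 bp upstream. Pcdha3, Pcdha10 and Pcdha11 reached 5.7 and Pcdha8 reached 3.8. Pcdha6 had only a region of the 0.48-step set, 0.96 high, which covered its start. Pcdha9 had no region within 1 kb; the nearest, 0.96 high, began 1066 bp downstream. Of the 7 genes from Pcdha1 to Pcdha7, 5 had a region of 7.6 or more, and of the 5 from Pcdha8 to Pcdha12 only Pcdha12 had one, a split chosen after the values were seen.

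Values varied among the C-type genes. Pcdhac1 had a region of 3.8 over its start and one of 7.6 centred 779 bp downstream. Pcdhac2 had none within 1 kb, and the nearest region, 9.5 high, began 1735 bp downstream (37145413 to 37146047). Pcdhgc3 had 1 region, 5.7 high, centred 966 bp upstream. Pcdhgc4 had none, with the nearest 1188 bp upstream and 0.96 high. Pcdhgc5 had a region of 5.7 centred 364 bp downstream and 2 of the 0.48-step set, both 0.96 high. So 3 of the 5 C-type starts had a region and 1 had a region of 7.6 or more, beside 82.5% and 22.9% of the other genes; 5 genes are too few to read a difference from.

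Of the 22 beta starts 11 reached 5.7, the median of the other genes. The background for a 1.9-step region of 3 or more steps, which is 5.7 or more, was 52.8%, so this count was near it. Pcdhb12 had the largest summed signal of all members' starts, 5779.8, from a region of 3.8 and one of 7.6 that was 1377 bp wide and centred 1407 bp downstream, inside this single-exon gene. Pcdhb4 had 7.6 centred 999 bp upstream and Pcdhb18 had 7.6 centred 812 bp upstream. Next by summed signal came Pcdhb17, where a region of 5.7, 889 bp wide, covered the start. In all, the highest signal was exactly 5.7 in 8 beta genes and exactly 3.8 in 5. Pcdhb5 and Pcdhb16 had 0.96 and Pcdhb19 had 1.44, from the 0.48-step set alone. Pcdhb9, Pcdhb14 and Pcdhb22 had no region within 1 kb. Their nearest regions were 1019 bp upstream with 5.7, 2375 bp downstream with 1.44, and 1464 bp upstream with 0.96.

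Among the gamma genes, Pcdhgb2 had 9.5 centred 1099 bp upstream, with its edge inside the window, and Pcdhga8 had 7.6 centred 256 bp downstream. Pcdhga8 was the gene with a region of 7.6 closest to its start, 106 bp away. Pcdhga11 and Pcdhga7 followed with 5.7 and summed signals of 4250.3 and 4071.8. In all, the highest signal was exactly 5.7 in 7 gamma genes and exactly 3.8 in 8, and Pcdhgb1 and Pcdhgb6 had only 0.96 from the 0.48-step set. Pcdhga10 had the most regions of any member, 1 of the 1.9-step set with 3.8 and 3 of the 0.48-step set with up to 1.44. Pcdhga2 had none within 1 kb, the nearest lying 1490 bp upstream with 0.96. Over all 57 members the nearest region lay a median of 242 bp from the start and at most 2375 bp.

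**Figure D3:**
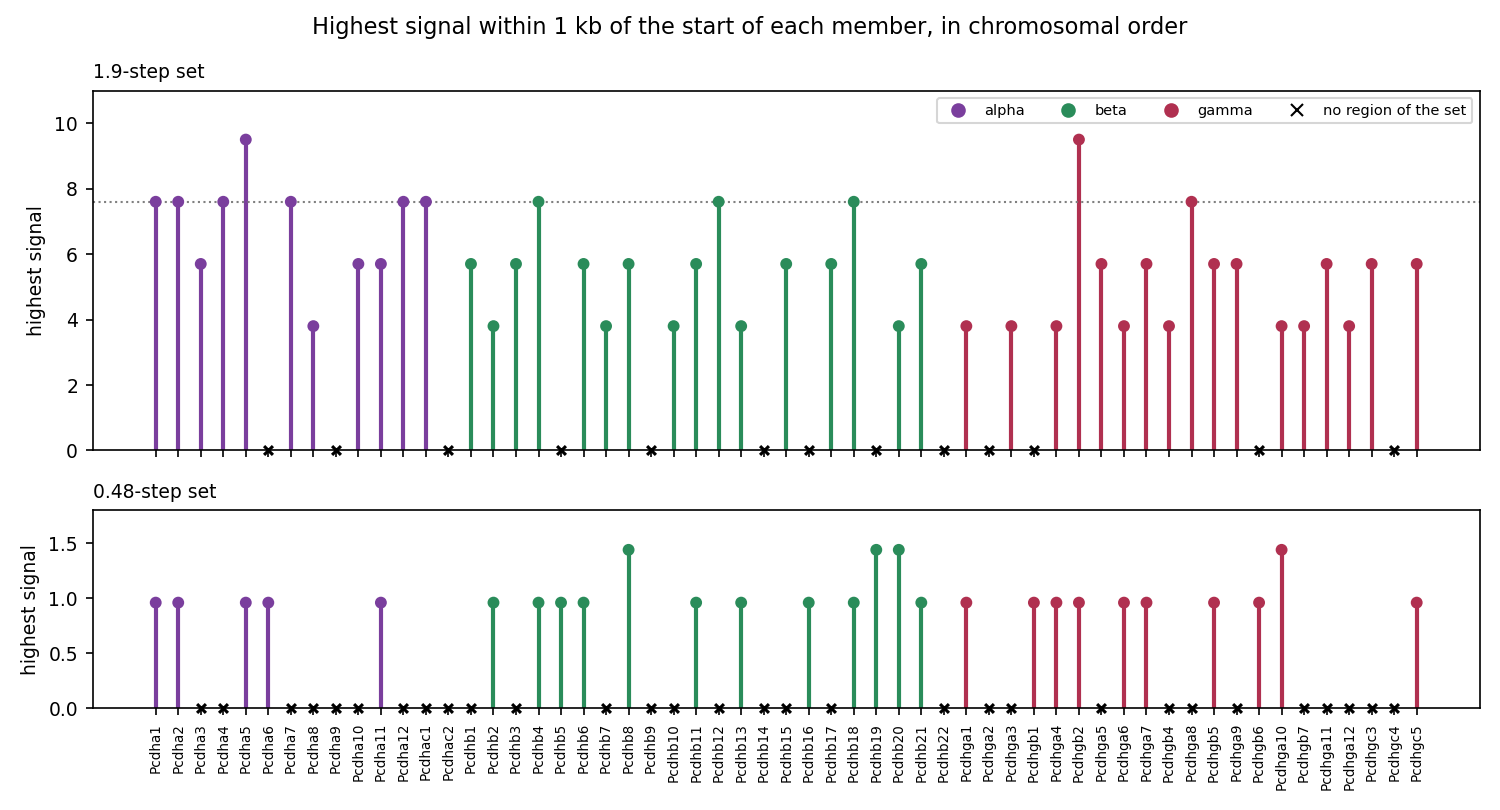
Highest signal (y axes) of the regions within 1 kb of each member's start, in chromosomal order (x axis), for the 1.9-step set (top; dotted line at 7.6) and the 0.48-step set (bottom, own scale); a cross marks a member with no region of that set. Of the 12 stems at or above 7.6, 7 belong to alpha genes, 3 to beta and 2 to gamma.

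At the exact start the members' share was near the background. The start base itself was covered by a region in 13 members (22.8%), with a background of 26.0%. These were Pcdha3, Pcdha5, Pcdha6, Pcdhac1, Pcdhb5, Pcdhb8, Pcdhb13, Pcdhb15, Pcdhb17, Pcdhga3, Pcdhga4, Pcdhgb6 and Pcdhga10, chosen by this criterion after their values were seen. Read every 250 bp to 5 kb either side, coverage by the 1.9-step set ran between 5.26% and 28.1% of the members, with a mean of 17.7%. In the other genes it stayed between 19.7% and 22.4%, highest 250 bp upstream of the start. The members had 15.8% at the start, 28.1% at 1000 bp upstream and 26.3% at 750 bp downstream. Far from the start they reached the same height, with 28.1% also at 5000 bp upstream. With 57 genes, 1 gene is worth 1.75%. The 0.48-step set covered 0 to 15.8% of the members, with a mean of 6.16% against 5.70% in the other genes. Of the 34 regions of this set in the windows, 25 were centred upstream of the start and 9 downstream. For the 1.9-step set 34 were upstream and 26 downstream. Such a split was not counted in the other genes. To 5 kb, mean coverage by the 0.48-step set was 5.67% upstream and 5.73% downstream in the other genes, against 6.75% and 5.53% in the members. In the gamma array the next start is often less than 5 kb away, so positions far from one start can be near another.

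**Figure D4:**
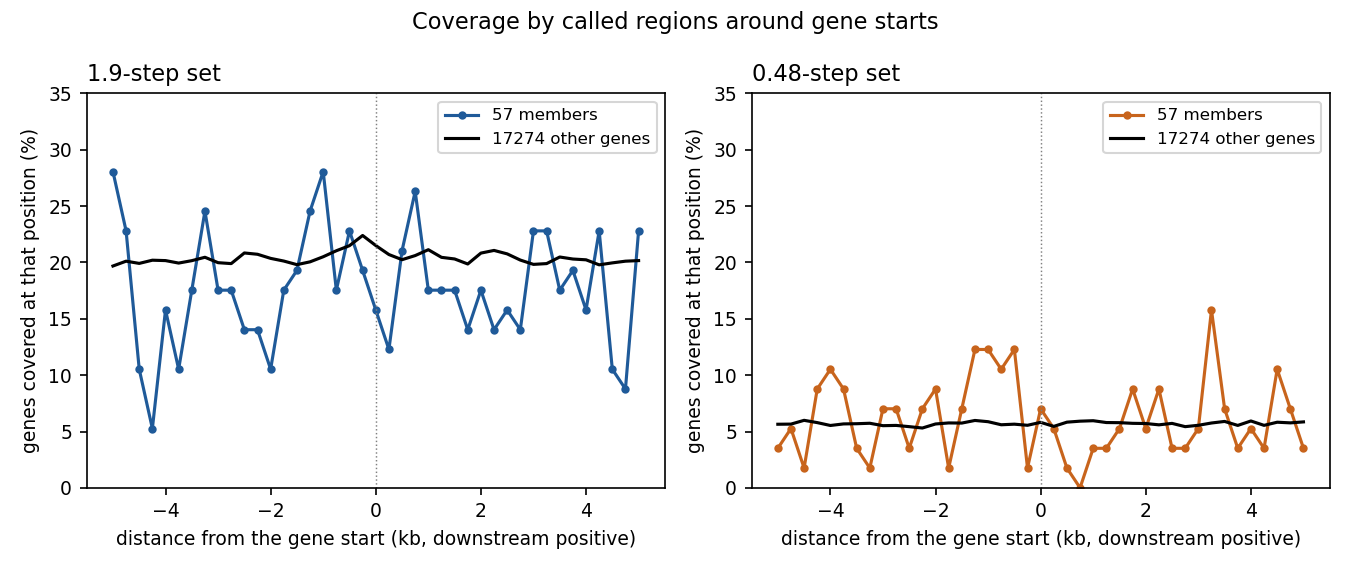
Share of genes (%, y axis) covered by a called region at each distance from the gene start (kb, x axis, downstream positive), for the 1.9-step set (left) and the 0.48-step set (right), in the 57 members (points) and 17274 other protein-coding genes (line). The members' values scatter around or below the flat 1.9-step background, with 15.8% at the start itself.

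By midpoint, the windows 1 kb either side of the starts held 44 regions of the 1.9-step set in 111 kb, or 3.96 per 10 kb. These windows are called first exons here, also for the single-exon beta genes, and include the sequence just upstream. The sequence counted as between genes held 172 in 465 kb, or 3.70 per 10 kb. In alpha and gamma that class was all sequence before the last start outside the windows. It thus included first-exon sequence more than 1 kb past a start. For the 0.48-step set the values were 2.34 and 2.69 per 10 kb. The small excess of the 1.9-step set at first exons came with the alpha genes, at 5.55 per 10 kb against 3.36 between genes. In beta the order was the opposite, 3.49 against 3.82, as in gamma, 3.41 against 4.08. Taking the first exon as the stretch from the start to 2.5 kb downstream turned the direction over the 3 clusters, to 3.09 against 3.81. The rest of the beta genes, past 1 kb from the start, held 2.61 regions of the 1.9-step set per 10 kb. The shared 3' part after the last start held 3.17 per 10 kb in alpha (14 regions in 44.2 kb) and 1.88 in gamma (4 regions in 21.3 kb). All 4 regions of the gamma 3' part had 3 or more steps, as did 11 of the 14 in alpha. The share was 63.4% between genes and 63.5% over chromosomes 1 to 19 and X. With so few regions no difference can be read, and none was tested.

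The 8 regions of 9.5, the tallest of the clusters, included 5 in alpha, 1 in beta and 2 in gamma. Of these 2 touched a start window, and the windows took up 111 of the 695 kb of the clusters. The one with the largest summed signal, 4157.2 over 1053 bp, lay between Pcdha12 and Pcdhac1, 34948 bp before the Pcdhac1 start (37054662 to 37055714). The next was the region 2052 bp past the Pcdhac2 start, and another lay 9563 bp past the Pcdhac1 start. Others were centred 4952 bp before Pcdhb15, 1809 bp before Pcdhga3, 2752 bp before Pcdha3, and at Pcdhgb2 and Pcdha5 as given above. The next by summed signal were 7.6 high, the region in Pcdhb12 and one 6224 bp past the Pcdhb5 start. The 5 regions of 1.92, the tallest of the 0.48-step set here, lay 25092 bp before and 38136 bp past the Pcdhac2 start, 12072 and 10187 bp before Pcdhb15, and 7375 bp past Pcdhb8.

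The share of regions that overlapped the other set was lower in the clusters than in the flanks, a difference without a test. In the clusters 41 of 176 regions of the 0.48-step set (23.3%) overlapped one of the 1.9-step set by 1 bp or more, against 32.1% in the flanks and 27.7% over chromosomes 1 to 19 and X. Taken over the 1.9-step set, 16.5% overlapped in the clusters, 18.9% in the flanks and 17.7% over those chromosomes. The share of 0.48-step regions was 28.8% in alpha, 18.8% in beta and 22.9% in gamma. The clusters also had less of their bases covered by the 1.9-step set, as given above, and the part of this in the lower overlap was not tested.

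Genes outside the clusters that belong to the same biology were described in the same way. Of 12 non-clustered protocadherins, which are scattered genes of the same superfamily, 9 had a known strand, and 8 of these had a region within 1 kb of the start, 2 of them of 7.6 (Pcdh7 and Pcdh17), beside a background of 82.5% for any region and 22.9% for 7.6 or more. Pcdh18 had none. Pcdh1 and Pcdh12, which lie in the flank after the gamma cluster, reached 9.5 and 7.6 within 1 kb of either end, a wider search because their strand was not in the tables. Of 12 genes for factors that act on the clusters, 8 had a known strand and 6 of these had a region, beside the same 82.5%. Wapl, which encodes the cohesin release factor, reached 7.6, Setdb1, Stag1 and Smchd1 reached 5.7, and Ctcf and the cohesin subunit gene Smc3 reached 3.8. Dnmt3b, for a DNA methyltransferase, and Smc1a, for a cohesin subunit, had none, and neither had Stag2 at either end. At either end, Rad21 reached 7.6, Rest 5.7 and Nipbl 3.8.

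Of 6 classical cadherins, Cdh6 and Cdh8, the 2 with a known strand, both had 3.8 at the start; at either end Cdh4 and Cdh11 reached 7.6, Cdh1 5.7 and Cdh2 0.96. Beside the clusters, at either end, Diaph1 reached 11.4, Taf7 7.6, Zmat2 5.7 and Slc25a2 3.8. Of the other tandem families, the odorant receptors were near the background for any region, and the Hox genes below it. Of 944 odorant receptor genes with a known strand 82.4% had a region within 1 kb of the start and 15.8% one of 7.6 or more, and of 22 such Hox genes 72.7% and 18.2%. These differences from the protocadherins were not tested.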

How the data were processed

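The submitters' processing notes name Bowtie2, deepTools, SEACR and mm10. The sources used here give no versions, order, thresholds or spike-in scaling, and do not say how libraries were combined. The authors deposited 1 table in the 6-column layout of SEACR: column 4, a score, is the coverage signal summed over the bases of a region (signal times bp), and column 5 is its highest signal, both on the authors' scale. Regions were put in a step set when column 5 was within 0.001 of a whole multiple of 1.9 or 0.48 but not of both. Blocks were counted by midpoint and start windows by any overlap.

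Genes came from RefSeq (GRCm38.p6). Strand came from RefSeq's promoter table, which holds 0 of the members; these were read from their lower coordinate, since the alpha and gamma genes share their upper end, and beta by general knowledge. Autosomal tiles left out the first 3 Mb of each chromosome. The planned test of FLAG against IgG (limma or edgeR) was not run, since no column belongs to a library. Counting was tested on simulated regions. The members and lists were chosen with earlier results of these data known. Genes named were the C-type genes, the 4 members per cluster with the highest signal at the start, all without a region, the 10 tallest regions and the 5 tallest of the 0.48-step set, and list members with no region or the highest signal; members and list genes beyond these were named for completeness after their values were seen. Python 3.11.15, numpy 2.4.6, pandas 2.3.3, scipy and matplotlib 3.10.9 were used.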

Additional observations from a re-analysis of the deposited data

How the results depend on the processing

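No paired analysis was possible because no column of the table belongs to a library, and for the same reason no library could be left out. Of 87 alternative values 69 stayed within 1.5 times the main count or within its counting interval, 14 moved and 4 turned. Some of the 69 say little. A step tolerance of 0.01 gave the main value each time. Asking for 3 or more steps cannot remove a region of 7.6 or more, so that count stayed at 12 by construction. The ratio of clusters to flanks in the 1.9-step set, 0.801, stayed below 1 in each alternative, from 0.751 with regions of 3 or more steps to 0.854 with flanks of 500 kb. In the 0.48-step set, regions of 3 or more steps gave 0.775 for the 3 clusters (main 0.929), 0.476 for alpha (main 0.837) and 1.08 for beta (main 0.987), and flanks of 2 Mb gave 1.01 for beta. First exons against the sequence between genes changed from 1.07 to 0.809 for the 1.9-step set with the 2.5 kb stretch, and from 0.871 to 1.06 for the 0.48-step set when counted by any overlap. Members with a region of 7.6 or more fell from 12 to 4 with a window of 500 bp (alpha 3, beta 0, gamma 1), or 7.02% against a background of 15.3%. Gamma alone gave 5 with 2 kb, 1 with the 2.5 kb stretch and 1 by midpoint. With regions of 3 or more steps, 33 members had any region (57.9%, background 58.7%) and 4 one of the 0.48-step set (7.02%, background 13.0%), and with 2 kb 41 had one of the 0.48-step set (71.9%, background 65.3%). Requiring an overlap of 0.5 of the region gave 4.03% of 1.9-step and 17.0% of 0.48-step regions. Fewer regions or a narrower window lower a count by construction, in members and background alike. For regions of 7.6 or more at 500 bp the members fell further, from 21.1% to 7.02% against 22.9% to 15.3%. The same held for the 0.48-step set with 3 or more steps, from 47.4% to 7.02% against 42.7% to 13.0%. For any region at 500 bp the members stayed above the background, 71.9% against 64.8%. The cause of these differences and of the other changes was not tested. Depth is unknown and sets no stated limit.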
